A study of Mus musculus with 10 samples.

Results

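The genes described here encode acute-phase proteins of the blood plasma and some of their close partners, 32 genes of the 55401 in the count tables of these livers. They were chosen by symbol from the known acute-phase families, with results of the comparison of wild-type (WT) with Thrb-deleted livers in view, so their levels in that comparison are given as a description. All 32 symbols matched a gene, and 30 of them passed the filter on low counts together with 12234 genes in all. A2m and S100a9 did not pass it.

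The data are liver RNA-seq of 5 WT mice and 5 mice labelled THRB-KO, here called Thrb hep-/-, with 1 library per mouse. The deleted gene, Thrb, encodes thyroid hormone receptor beta. The Thrb hep-/- mice carry Thrb-loxP alleles and Afp-Cre, a recombinase under control of the alpha-fetoprotein gene, which is active in fetal liver cells, and the WT mice are their littermates. The labels give the strain as C56Bl6/J in one field and C57Bl6/J in another and the diet as standard chow in all 10 mice. Age, sex, hour of collection and the loxP status of the littermates are not given in the sources used here.

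The acute-phase response is the change in liver secretion that follows infection, injury or inflammation. Interleukin 6 acts on hepatocytes through the transcription factor STAT3, and interleukin 1 and tumour necrosis factor act through NF-kappaB, with C/EBP factors joining at many promoters. Positive acute-phase genes such as the serum amyloid A, orosomucoid and haptoglobin genes are then switched up, while negative ones such as albumin are turned down. In mice the serum amyloid A proteins and serum amyloid P component, encoded by Apcs, respond strongly, and C-reactive protein responds weakly.

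Total counts were between 26477195 and 28590704 per library, and 3 counts, taken as the floor of detection, corresponded to between 0.0993 and 0.117 normalized CPM. Normalized CPM are counts scaled to a common library size, that of the tested genes after TMM scaling. Thrb was between 32.5 and 34.2 normalized CPM in WT mice and between 24.9 and 28.8 in Thrb hep-/- mice, a log2 fold change of −0.32 (standard error 0.067), and the groups did not overlap. The counts cover the whole gene and do not show which exons the remaining reads came from. Summed over the 5 hepatocyte markers other than Alb (Apoa1, Ttr, Cps1, Tat and Cyp2e1), levels ranged from 21916 to 28824 normalized CPM in WT and from 22121 to 30224 in Thrb hep-/- livers, and of the 5 only Ttr had an unadjusted p below 0.05 (edgeR), none being past an adjusted p of 0.15.

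Several of the genes lie in clusters of related copies. On chromosome 7 of GRCm38, Saa3, Saa4, Saa1 and Saa2 follow each other between 46711998 and 46754313, and on chromosome 4 Orm1, Orm3 and Orm2 lie between 63344560 and 63365878. The 3 fibrinogen chain genes lie between 83007724 and 83049863 on chromosome 3, and Itih4, Itih3 and Itih1 between 30886476 and 30943289 on chromosome 14. Promoter windows of 250 bases before the RefSeq start were available for 27 of the 32 genes. Windows of 7 genes are shown, those of Saa1, Saa2, Saa4, Orm2 and Orm3 because these neighbouring copies differ widely in level and spread, and those of Apcs and Fgb because they hold a STAT match. Capitals mark matches to the C/EBP motif TTGCNNAA and the STAT motif TTCNNNGAA on either strand, and the windows are from RefSeq on GRCm38.p6, 5′ to 3′ on the strand of the gene. The Saa2 window ends at base 207, where an exon of the GENCODE annotation begins.
Saa1, chr7:46742981-46743230, minus strand: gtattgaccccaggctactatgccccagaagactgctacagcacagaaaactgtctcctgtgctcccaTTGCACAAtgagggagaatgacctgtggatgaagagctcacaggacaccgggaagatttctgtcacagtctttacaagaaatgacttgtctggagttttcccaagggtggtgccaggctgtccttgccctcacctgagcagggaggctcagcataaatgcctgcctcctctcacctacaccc
Saa2, chr7:46751583-46751789, plus strand: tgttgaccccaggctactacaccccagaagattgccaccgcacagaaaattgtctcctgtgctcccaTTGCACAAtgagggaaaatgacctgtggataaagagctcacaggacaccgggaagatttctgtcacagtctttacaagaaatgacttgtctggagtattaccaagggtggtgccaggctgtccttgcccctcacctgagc
Saa4, chr7:46732604-46732853, minus strand: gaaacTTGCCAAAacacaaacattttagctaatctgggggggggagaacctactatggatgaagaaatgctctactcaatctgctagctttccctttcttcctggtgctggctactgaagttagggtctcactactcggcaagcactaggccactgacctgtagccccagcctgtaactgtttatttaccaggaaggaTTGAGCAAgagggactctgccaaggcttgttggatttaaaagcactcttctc
Orm2, chr4:63362199-63362448, plus strand: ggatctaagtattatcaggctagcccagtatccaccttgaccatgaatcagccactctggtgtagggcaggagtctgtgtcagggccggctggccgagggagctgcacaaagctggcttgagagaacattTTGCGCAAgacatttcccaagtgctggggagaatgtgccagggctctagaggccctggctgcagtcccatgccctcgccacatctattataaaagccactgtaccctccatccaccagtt
Orm3, chr4:63355908-63356157, plus strand: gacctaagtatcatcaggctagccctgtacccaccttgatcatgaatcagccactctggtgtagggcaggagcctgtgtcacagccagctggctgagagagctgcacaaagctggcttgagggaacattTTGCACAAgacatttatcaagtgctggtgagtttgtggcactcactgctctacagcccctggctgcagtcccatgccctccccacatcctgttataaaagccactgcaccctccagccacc
Apcs, chr1:172895055-172895304, minus strand: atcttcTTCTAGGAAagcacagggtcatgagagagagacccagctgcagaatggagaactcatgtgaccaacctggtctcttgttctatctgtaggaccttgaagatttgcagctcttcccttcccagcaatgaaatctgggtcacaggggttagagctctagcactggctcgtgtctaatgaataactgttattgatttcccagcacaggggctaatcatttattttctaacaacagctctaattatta
Fgb, chr3:83049864-83050113, minus strand: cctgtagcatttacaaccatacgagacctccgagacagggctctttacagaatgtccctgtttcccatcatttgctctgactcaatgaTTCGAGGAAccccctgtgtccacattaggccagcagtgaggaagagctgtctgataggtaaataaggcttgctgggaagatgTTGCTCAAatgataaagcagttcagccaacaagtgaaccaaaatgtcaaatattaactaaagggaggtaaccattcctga

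The Saa1 and Saa2 windows were 95.2% identical over 250 bases in a global alignment, and those of Orm2 and Orm3 87.6%. Each of these 4 windows held 1 C/EBP match, and the Saa4 window held 2. Over the 27 genes with a window of 300 bases, counting 50 bases after the start, 15 held a C/EBP match, while 12.2% of all 27025 genes with such windows did. A STAT match was present in 6 of the 27 (Apcs, Fga, Fgb, Itih4, Steap4 and Agt) against 9.55% of all genes, and a kappaB match in 1, Steap4, also against 9.55%. The AGGTCA element bound by thyroid hormone receptors was in 8 of the 27 (Saa1, Saa2, Saa4, Hpx, Fgg, Itih4, Il1rn and Ambp), against 18.1% of all genes. The repeat of this element known as DR4 was in none of the 27, and in 0.0148% of all genes. Similar copies, such as Saa1 with Saa2 and Orm2 with Orm3, were counted as separate genes. These are matches of letters in short windows and not measured binding sites.

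Among the 30 tested acute-phase genes, 15 were lower in the livers of Thrb hep-/- mice and none was higher (quasi-likelihood F-test of edgeR, p adjusted by Benjamini-Hochberg over 12234 genes and below 0.15). Over all tested genes 4.08% were called at this threshold, 2.57% lower and 1.51% higher. The 15, like the 22 and the 21 given below, include S100a8, which passed the filter on low counts mainly through WT libraries. Without Thrb hep-/- mouse 3 the 15 became 9. At an unadjusted p below 0.05 there were 22 lower and none higher, against 7.41% and 6.15% of all tested genes. At an adjusted p below 0.15, DESeq2 called 21 lower and none higher (3.96% and 3.28% of all genes it tested) and limma-voom 14 and none (2.63% and 1.52%). At an adjusted p below 0.05 there were 8 lower and none higher, against 1.35% of all tested genes called in either direction, 1.03% lower and 0.319% higher. These 8 became 2 without WT mouse 5 or any one of Thrb hep-/- mice 3, 4 and 5, 3 without WT mouse 2, 4 without WT mouse 1 and 15 with DESeq2. Of the 30, 29 were fitted below WT and 1, Alb, above it, and the median log2 fold change was −0.87 (−0.50 without WT mouse 2), beside 0.00054 over all tested genes. In 9 genes each Thrb hep-/- mouse was below each WT mouse (Saa1, Saa2, Saa4, Lcn2, Apcs, Itih3, Itih4, Lbp and Lrg1), and none was apart in the other direction. Over all tested genes the groups were apart in 3.64%, 2.26% with Thrb hep-/- lower and 1.38% with it higher. As the genes were picked with this comparison known, these shares describe them and support nothing about the list. In whole livers, fewer cells of a type and less RNA per cell cannot be told apart.

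**Figure D1:**
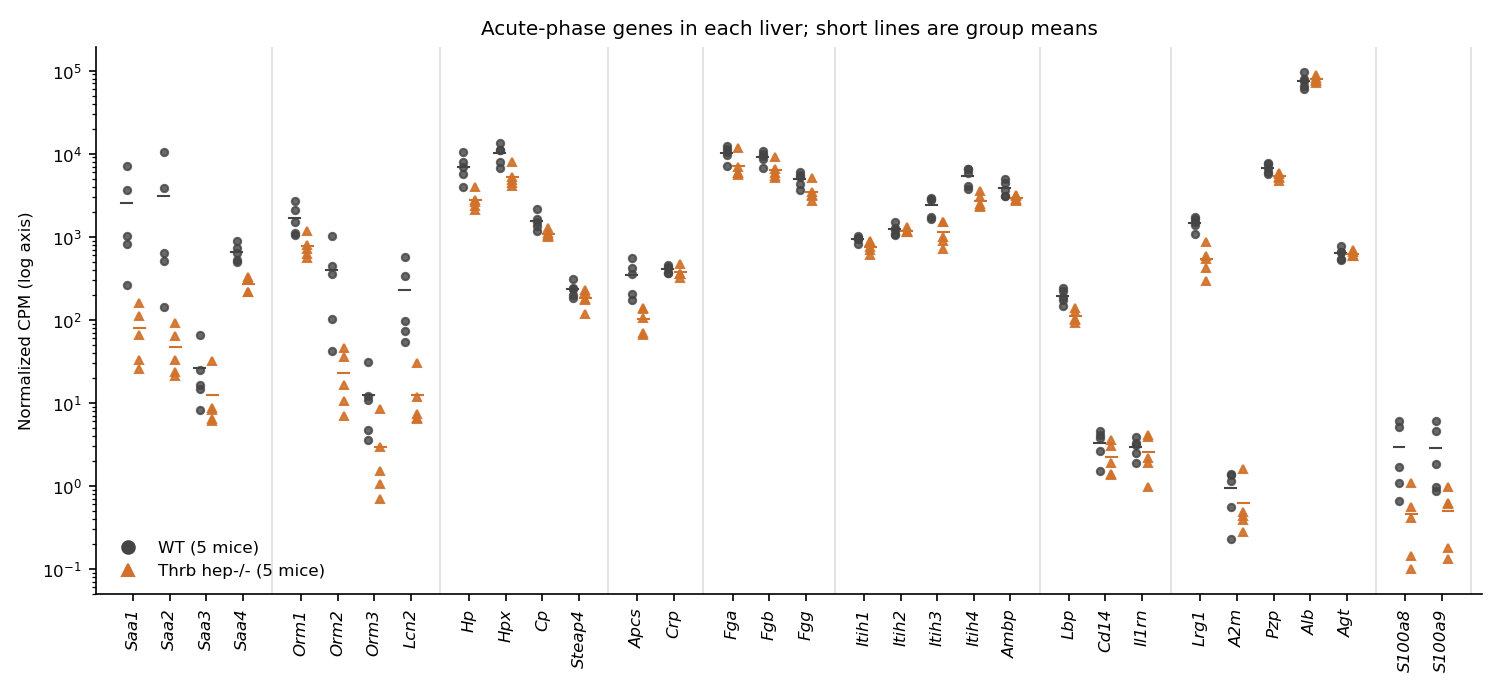
Normalized CPM on a log axis (y) of the 32 acute-phase genes (x, grouped by role) in each of 5 WT livers (circles) and 5 Thrb hep-/- livers (triangles), with short lines at the group means. Levels ran from 0.0993 for S100a8 in Thrb hep-/- mouse 4 to 96603 for Alb in WT mouse 1, and the widest gaps between genotypes were those of Saa1, Saa2, Orm2 and Lcn2.

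**Figure D2:**
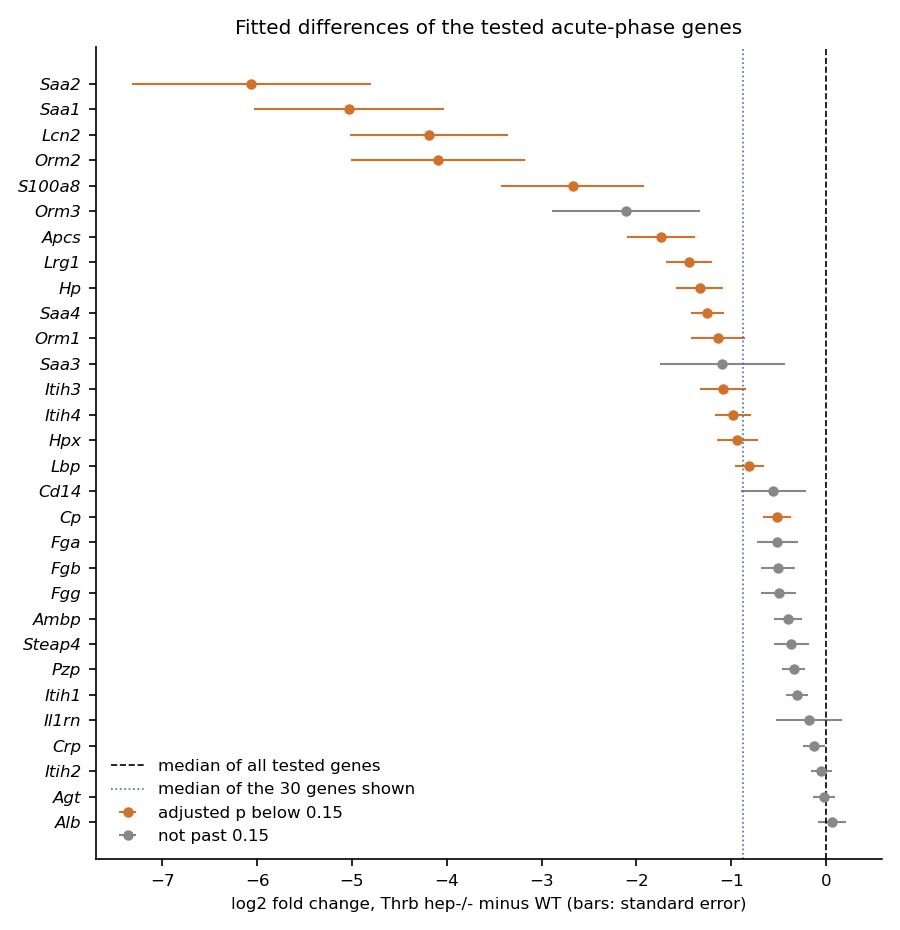
Log2 fold change (x, Thrb hep-/- minus WT, bars are standard errors) of the 30 tested acute-phase genes (y), with genes lower at an adjusted p below 0.15 in orange and the medians of these genes (−0.87) and of all tested genes as lines. Estimates ran from −6.06 for Saa2 to 0.07 for Alb.

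Serum amyloid A proteins are apolipoproteins of high-density lipoprotein, of which Saa1 and Saa2 are the main inducible liver forms, Saa3 is made largely outside hepatocytes and Saa4 is the constitutive form. Saa1 was at 1009.8, 7135, 265, 822 and 3669 normalized CPM in WT mice 1 to 5 and at 66.1, 158, 25.8, 33.0 and 112 in Thrb hep-/- mice 1 to 5, a log2 fold change of −5.03 (standard error 1.0035). Saa2 was at 636, 10368, 142, 509 and 3824 in WT mice and at 33.0, 91.2, 20.8, 23.2 and 63.7 in Thrb hep-/- mice, a log2 fold change of −6.06 (standard error 1.26). WT mice 2 and 5 were far above the other WT mice for both genes, WT mouse 3 was the lowest of its genotype, and even this mouse was above every Thrb hep-/- mouse. Without WT mouse 2 the log2 fold changes were −4.20 for Saa1 and −4.79 for Saa2, both still past the threshold. Saa4 was at 725, 523, 496, 631 and 878 in WT mice and at 306, 298, 217, 216 and 327 in Thrb hep-/- mice, a log2 fold change of −1.25 (standard error 0.18). Here the groups were apart too, but WT mouse 2, the highest for Saa1 and Saa2, was the next to lowest WT mouse. Saa3 was at 8.25, 66.4, 14.7, 24.6 and 16.6 in WT mice and at 6.36, 31.9, 8.71, 8.31 and 6.05 in Thrb hep-/- mice. The groups overlapped, replicate 2 stood above the others of its genotype in both, and the difference did not pass the threshold (log2 fold change −1.10, standard error 0.66, −0.39 without WT mouse 2 and −1.82 without Thrb hep-/- mouse 2).

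The proportion of Saa2 to Saa1 was not constant. Saa2 counts were 1.45 times those of Saa1 in WT mouse 2 and 1.04 times in WT mouse 5, and between 0.534 and 0.630 times in the other WT mice, while Thrb hep-/- mice had ratios between 0.499 and 0.807. Thus the mice with the highest sums of Saa1 and Saa2 (17503 and 7493 normalized CPM) were the ones in which Saa2 exceeded Saa1. The summed level was 1646, 1332 and 407 in WT mice 1, 4 and 3 and between 46.6 and 249 in Thrb hep-/- mice. Of the 50-base stretches of the transcripts, 31.5% of those of Saa1 and 30% of those of Saa2 occur in another gene, mainly in each other. Reads that mapped to several places were not counted, so that both levels are uncertain, as is the ratio between the genes.

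Orosomucoids are acidic glycoproteins that bind drugs and lipids, and lipocalin 2, encoded by Lcn2, withholds iron from bacteria by binding their siderophores. Orm1 was at 1522, 2675, 1045, 1098 and 2118 normalized CPM in WT mice 1 to 5 and at 711, 1166, 613, 558 and 805 in Thrb hep-/- mice 1 to 5, a log2 fold change of −1.13 (standard error 0.29). Thrb hep-/- mouse 2 lay above WT mice 3 and 4, so the groups overlapped. Orm1 was not past the threshold without WT mouse 2 (−0.91), WT mouse 5 (−1.04) or any one of Thrb hep-/- mice 3, 4 and 5 (−1.15 to −1.04), nor without the filter on low counts (−1.14). Orm2 was at 355, 1019.5, 102.1, 42.4 and 443 in WT and at 16.5, 45.9, 10.4, 7.02 and 35.4 in Thrb hep-/- mice, a log2 fold change of −4.09 (standard error 0.92). Its overlap was between WT mouse 4, the lowest of its genotype, and Thrb hep-/- mouse 2, the highest, and the call was lost without WT mouse 5 (−4.05) or Thrb hep-/- mouse 3 (−3.91) and kept, at −3.36, without WT mouse 2. Lcn2 was at 97.8, 564, 53.3, 72.9 and 341 in WT mice and at 11.9, 30.2, 7.31, 6.32 and 6.54 in Thrb hep-/- mice, a log2 fold change of −4.18 (standard error 0.83), with no overlap, and was past the threshold at −3.51 without WT mouse 2 and at −4.81 without Thrb hep-/- mouse 2. Orm3 ranged from 3.59 to 30.8 in WT and from 0.695 to 8.32 in Thrb hep-/- livers and was not past the threshold (log2 fold change −2.10, standard error 0.78) except without Thrb hep-/- mouse 2 (−2.99), and it was at −1.44 without WT mouse 5. Orm1 made up most of the orosomucoid counts in every liver, and Orm2 was between 0.0387 and 0.381 times Orm1 in WT and between 0.0126 and 0.0440 times in Thrb hep-/- mice. Of the 50-base stretches of Orm1, 20.4% are also found in Orm2 or Orm3, and 22.7% of those of Orm2 are found in other genes, so these levels share the limit given for Saa1 and Saa2.

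The next group handles haem and metals. Haptoglobin, encoded by Hp, captures free haemoglobin, haemopexin captures free haem, ceruloplasmin carries copper and oxidises iron, and Steap4 is a metalloreductase. Hp was at 6817, 10525, 3917, 5695 and 7846 normalized CPM in WT mice and at 2801, 3929, 2116, 2346 and 2619 in Thrb hep-/- mice, a log2 fold change of −1.33 (standard error 0.25). Hpx was at 11194, 13403, 6782, 8026 and 11057 in WT mice and at 4835, 7830.3, 4429, 4136 and 5192 in Thrb hep-/- mice, a log2 fold change of −0.93 (standard error 0.22). In both genes Thrb hep-/- mouse 2 was above WT mouse 3 and below the other WT mice, for Hp by little (3929 against 3917), and without Thrb hep-/- mouse 3 the Hpx value was −0.88 and not past the threshold. Cp was at 1622, 2140.4, 1188, 1344 and 1519 in WT mice and at 1117, 1272, 1056, 1013 and 1001 in Thrb hep-/- mice, a smaller difference (log2 fold change −0.52, standard error 0.15). It passed the threshold in only 3 of 10 refits that each lacked 1 mouse, those without WT mice 3 and 4 and Thrb hep-/- mouse 2, and was between −0.53 and −0.38 in the other 7. Steap4 ranged from 182 to 314 in WT and from 119 to 225 in Thrb hep-/- livers (log2 fold change −0.37, standard error 0.18), not past the threshold. Thrb hep-/- mouse 2, high for most of these genes, had the lowest Steap4 level of the 10 mice.

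The pentraxins Apcs and Crp encode pattern recognition proteins with related ring-shaped structures. Apcs was at 360.3, 556, 171, 206 and 425 normalized CPM in WT mice and at 140.0, 136, 70.2, 64.8 and 104 in Thrb hep-/- mice, a log2 fold change of −1.74 (standard error 0.36) with groups that did not overlap. Crp, which lies on the same chromosome, ranged from 365 to 451 in WT and from 321 to 475 in Thrb hep-/- livers. Its log2 fold change was −0.13 (standard error 0.11), and the highest value of all 10 mice was that of Thrb hep-/- mouse 2.

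Fga, Fgb and Fgg encode the 3 chains of fibrinogen, the precursor of fibrin in clots. None of the 3 was past the threshold, and their log2 fold changes were −0.51, −0.51 and −0.50 with standard errors of 0.22, 0.18 and 0.19. Fga was at 11524, 12368, 7201, 10362 and 9612 in WT mice and at 11612, 5833, 5913, 5498 and 6983 in Thrb hep-/- mice. Thrb hep-/- mouse 1 stood above 4 of the WT mice and the remaining Thrb hep-/- mice were below every WT mouse. The same mouse was the highest of its genotype for Fgb (9221, others 5038 to 6511) and Fgg (5051, others 2695 to 3453), and without it the 3 genes were at −0.75, −0.67 and −0.67 and past the threshold. The chains kept close to constant proportions in each liver. Per kilobase of exon, Fgb was between 0.983 and 1.08 times Fgg in WT and between 0.970 and 1.04 times in Thrb hep-/- mice, and Fga between 1.33 and 1.57 times and between 1.27 and 1.60 times. Exons of Fgg share 115 bases with those of another gene, as do those of Cp (108 bases) and Pzp (303 bases), where reads overlapping both genes were not counted.

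Itih1 to Itih4 encode heavy chains that are, except Itih4, joined to bikunin, and Ambp encodes the precursor from which bikunin and alpha-1-microglobulin are cut. Itih3 was at 2785, 2914, 1627, 1742 and 2865 normalized CPM in WT mice and at 1507, 1521, 878, 719.8 and 998 in Thrb hep-/- mice, a log2 fold change of −1.09 (standard error 0.25). Itih4 was at 6596, 6610.4, 3709, 4103 and 5822 in WT mice and at 3539, 2968, 2315, 2258 and 2506 in Thrb hep-/- mice, a log2 fold change of −0.98 (standard error 0.19). Neither pair of groups overlapped, and in WT mice 3 and 4 both genes were lower than in WT mice 1, 2 and 5. Without Thrb hep-/- mouse 3 the Itih3 value was −1.01 and not past the threshold. Itih1, their neighbour, ranged from 817 to 1020.4 in WT and from 611 to 885 in Thrb hep-/- livers (log2 fold change −0.31, standard error 0.12). Itih2, on chromosome 2, ranged from 1048 to 1486 and from 1128 to 1307 (log2 fold change −0.05, standard error 0.11). Ambp, the most abundant of the group per kilobase of exon, was at 4971, 4407, 3063, 3096 and 3652 in WT mice and at 2672, 3127, 2765, 2824 and 3153 in Thrb hep-/- mice (log2 fold change −0.40, standard error 0.15). Itih1, Itih2 and Ambp did not pass the threshold.

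Lipopolysaccharide-binding protein, encoded by Lbp, and Cd14 hand bacterial endotoxin to its receptor, and Il1rn encodes the antagonist of the interleukin 1 receptor. Lbp was at 171, 242, 147, 189 and 223 normalized CPM in WT mice and at 126, 138, 101, 99.2 and 91.0 in Thrb hep-/- mice, a log2 fold change of −0.81 (standard error 0.15), with groups apart. Cd14 ranged from 1.51 to 4.53 in WT and from 1.34 to 3.60 in Thrb hep-/- livers and Il1rn from 1.87 to 3.90 and from 0.960 to 4.10. Both were among the least abundant of the 32 genes, with log2 fold changes of −0.56 (standard error 0.34) and −0.18 (standard error 0.35) that did not pass the threshold.

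Lrg1, the gene of leucine-rich alpha-2-glycoprotein, was at 1400.4, 1724, 1073, 1489.6 and 1626 normalized CPM in WT mice and at 853, 541, 296, 416 and 583 in Thrb hep-/- mice. The lowest WT level, that of mouse 3, was above the highest Thrb hep-/- level, and the log2 fold change was −1.44 (standard error 0.24). Unlike for Saa1 and Lcn2, the WT livers differed little, by 1.61-fold from lowest to highest. Alb, a negative acute-phase gene, was at 96603, 60312, 65076, 78219 and 74783 in WT mice and at 75300.0, 77308, 87569, 81499 and 71262 in Thrb hep-/- mice, with groups that overlapped (log2 fold change 0.07, standard error 0.15). Agt, which encodes angiotensinogen, ranged from 525 to 773 in WT and from 579.8 to 697 in Thrb hep-/- livers (log2 fold change −0.02, standard error 0.12). The alpha macroglobulins are broad protease inhibitors. Pzp, the macroglobulin of normal mouse plasma, ranged from 5748 to 7782 and from 4715 to 5912 (log2 fold change −0.34, standard error 0.12). A2m was below 1.58 normalized CPM in all 10 mice and was not tested. None of Alb, Agt and Pzp passed the threshold.

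S100a8 and S100a9 encode the 2 subunits of calprotectin, a protein stored in neutrophils. S100a8 was at 1.67, 6.01, 5.15, 0.664 and 1.09 normalized CPM in WT mice and at 1.08, 0.562, 0.412, 0.0993 and 0.141 in Thrb hep-/- mice, where the lowest value stood for 3 counts. It passed the filter with 4 WT and 1 Thrb hep-/- libraries at 1 CPM or more, so that it could hardly pass without a difference between the groups. It was called lower (log2 fold change −2.67, standard error 0.75) and no longer so with limma-voom (−2.62), without the filter (−2.68) or without any one of Thrb hep-/- mice 2, 3, 4 and 5 (−2.75 to −2.41), and it did not pass the filter without WT mouse 1, 2, 3 or 5 or Thrb hep-/- mouse 1. S100a9, not tested, was at 1.85, 5.98, 4.61, 0.860 and 0.973 in WT mice and at 0.973, 0.600, 0.618, 0.132 and 0.177 in Thrb hep-/- mice. WT mice 2 and 3 were the highest for both genes, whereas WT mouse 3 was the lowest WT mouse for Saa1, Saa2, Orm1, Lcn2, Hp and Hpx. Of the 10 other neutrophil markers only Csf3r was tested, and it was lower at an unadjusted p below 0.05 but not called. The summed level of the 10 was 4.73, 19.1, 16.7, 2.70 and 5.91 normalized CPM in WT mice and 3.86, 2.32, 1.85, 1.79 and 1.91 in Thrb hep-/- mice. Ly6g was between 0 and 0.0699 in WT livers and at 0 in every Thrb hep-/- liver, below the floor of 3 counts in both groups. The part of neutrophils in the levels of S100a8 and S100a9 was not tested.

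Markers of other liver cells were called in no case. The summed level of 10 Kupffer cell markers was 160.2, 465, 519.8, 348 and 562 in WT mice and 229, 366, 180.1, 256 and 312 in Thrb hep-/- mice, with 10 tested, all fitted lower, 3 of them (Timd4, Marco and Adgre1) at an unadjusted p below 0.05, and none called by edgeR. WT mouse 1, which had the lowest Kupffer cell sum of all 10 mice, lay between the other WT mice for Saa1 and Saa2. WT mouse 3, with the next to highest Kupffer cell sum, was the lowest WT mouse for both genes. WT mouse 5, with the highest Kupffer cell sum, was the next to highest for both. Among Thrb hep-/- mice, mouse 2 was the highest and mouse 3 the lowest for the Kupffer cell sum and for both genes. Of the 5 stellate, 4 endothelial, 1 cholangiocyte and 5 erythroid markers tested, 1, 1, 0 and 2 had an unadjusted p below 0.05. Dcn (stellate) and Kdr (endothelial) were higher in Thrb hep-/- livers, and Hba-a1 and Hba-a2 (erythroid) were lower. None of these markers was called by edgeR, and 0 of 6 lymphocyte markers passed the filter. At that unadjusted p (edgeR), 7.41% of all tested genes were lower and 6.15% higher. The part of these cells in the results above was not tested.

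**Figure D3:**
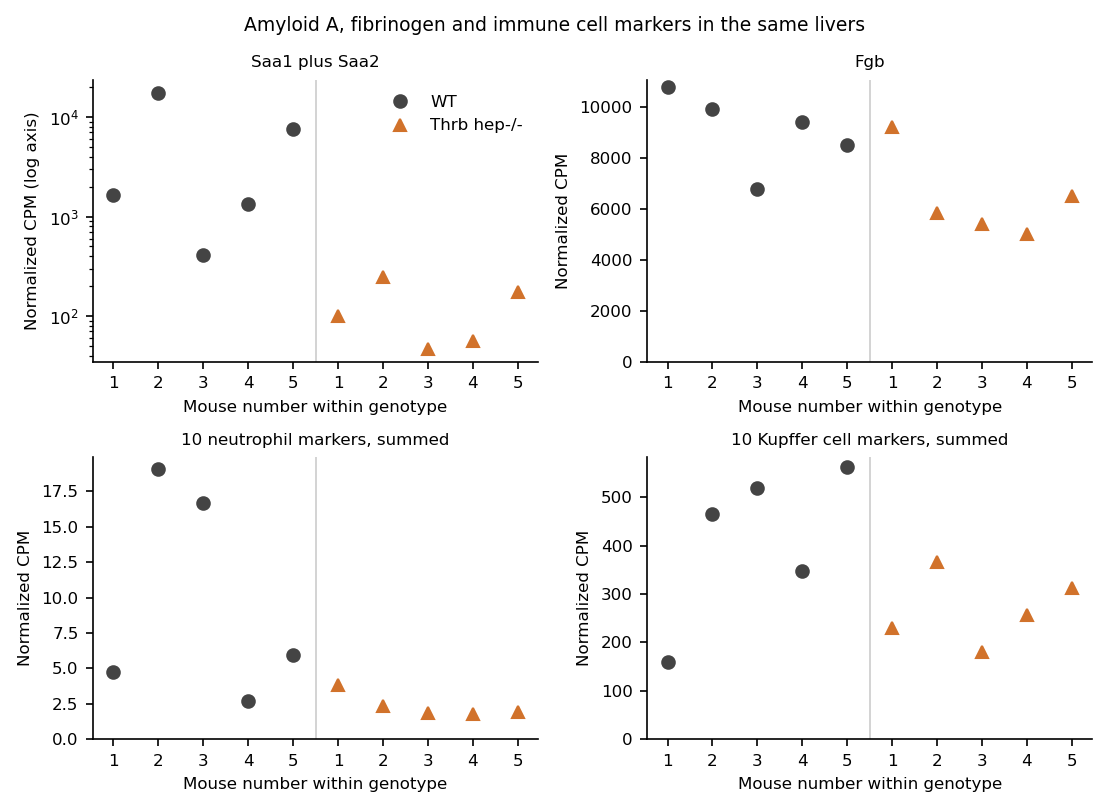
Normalized CPM (y) in each mouse (x, numbered within genotype) of Saa1 plus Saa2 on a log axis, and of Fgb, 10 summed neutrophil markers other than S100a8 and S100a9, and 10 summed Kupffer cell markers on linear axes from 0. WT mouse 3 is among the 2 highest for neutrophil markers and the lowest WT mouse for Saa1 plus Saa2, and Thrb hep-/- mouse 1 is the highest of its genotype for Fgb.

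Per kilobase of exon, Alb had the highest level of all tested genes (32023 ± 6006 normalized RPKM in WT mice and 33556 ± 2660 in Thrb hep-/- mice, SD with n = 5), followed among the acute-phase genes by Hpx (6733 ± 1775 and 3525 ± 986), Hp (4334 ± 1537 and 1719.9 ± 437), Fga (3393 ± 661 and 2381 ± 846) and Ambp (2724 ± 593 and 2064 ± 155). The 32 genes took 14.8% ± 1.89 of all counts in WT mice and 12.3% ± 0.671 in Thrb hep-/- mice (SD, n = 5 each). When Alb was left out of both the list and the total, the shares were 8.02% ± 2.03 and 4.75% ± 0.702.

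The second question is how the genes varied among mice of 1 genotype, which does not use the difference between genotypes. Among WT mice, Saa2 differed 73.2-fold between the highest and the lowest, Saa1 26.9-fold, Orm2 24.0-fold and Lcn2 10.6-fold. Among Thrb hep-/- mice these ranges were 4.38-fold, 6.11-fold, 6.54-fold and 4.78-fold. At the other end, Crp differed 1.23-fold and Itih1 1.25-fold among WT mice, and Itih2 1.16-fold and Ambp 1.18-fold among Thrb hep-/- mice. The median SD of log2 CPM over the 30 tested genes was 0.37 in WT and 0.36 in Thrb hep-/- livers, against 0.17 and 0.20 over all tested genes, and 20 of the 30 had the larger SD in WT livers against 40.7% of all tested genes. With 5 mice per group an SD is imprecise, and no test was run on it.

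The extremes fell to few mice. WT mouse 2 had the highest WT level in 16 of the 30 tested genes and WT mouse 1 in 11, while WT mouse 3 had the lowest in 21. Over all tested genes these mice were highest in 17.5% and 19.3% and lowest in 21.5%. Among Thrb hep-/- mice, mouse 2 was the highest in 16 and mouse 1 in 10 of the 30 (27.4% and 25.2% of all tested genes), and mouse 4 was the lowest in 18 (21.4%).

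**Figure D4:**
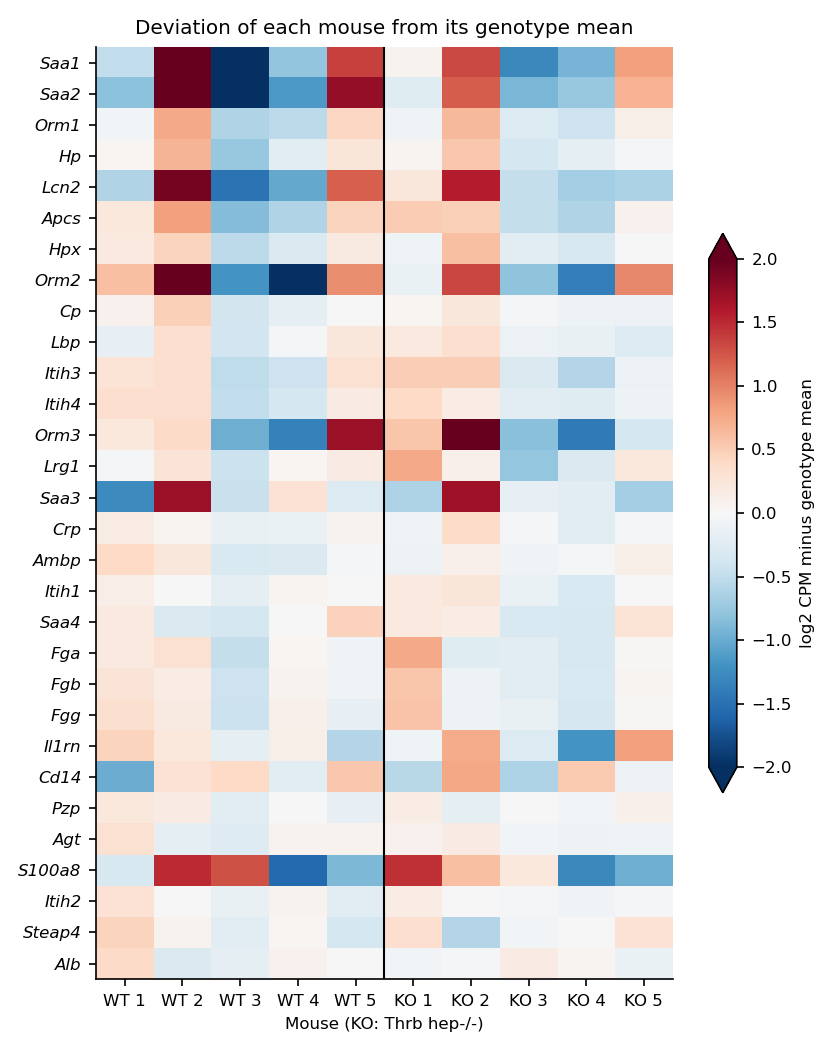
Deviation of log2 CPM from the mean of the genotype (colour, cut off at −2 and 2) for the 30 tested acute-phase genes (rows, Saa1 and Saa2 first and then by their correlation with the 2) in each mouse (columns). WT mouse 2 and Thrb hep-/- mouse 2 are above their means and WT mouse 3 and Thrb hep-/- mouse 4 below them in most of the upper rows, and the fibrinogen chains are high in Thrb hep-/- mouse 1.

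To describe which genes moved together within genotypes, the deviation of each gene's log2 CPM from its genotype mean was correlated over 10 mice with that of Saa1 plus Saa2, and mice were permuted within genotypes in all 14400 ways (exact permutation test, two-sided). The same was done for all 12232 tested genes other than Saa1 and Saa2, and p was adjusted over all of them by Benjamini-Hochberg. Of the 28 other acute-phase genes, 25 had a Pearson r above 0 and 7 an r above 0.8, whereas 0.336% of the 12204 tested genes outside the list had an r above 0.8. The median r was 0.56 over the 28 genes and 0.0044 over those 12204. An r above 0 with an unadjusted exact permutation p below 0.05 was found for 11 of the 28 genes, against 2.84% of all 12232, and without WT mouse 3 for 6. None of the 12232 genes passed the adjustment, the lowest adjusted p among the 28 being 0.566 for r and 0.944 for rho. The design nearly fixes this, since the smallest p that the permutations can give is 6.94e-05, which for a single gene adjusts to 0.849, and 17 genes would have to reach it for an adjusted p below 0.05. All 10 points share their libraries and scaling. Each r pools both genotypes and was not computed for each alone. WT mice weigh more in it, since Saa1 and Saa2 spread more among them. The SD of log2 CPM was 1.87 and 2.46 in WT against 1.11 and 0.93 in Thrb hep-/- livers.

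Orm1 had the highest r, 0.94 (exact permutation p = 0.000139, adjusted 0.566), and a Spearman's rho of 0.94 (exact permutation p = 0.00236, adjusted 0.953). Hp had r = 0.94 (exact permutation p = 0.000556, adjusted 0.708) and rho = 0.95 (exact permutation p = 0.000694, adjusted 0.944). Lcn2 had r = 0.90, Apcs 0.88 and Hpx 0.86, with exact permutation p-values of 0.00188, 0.00444 and 0.00194 and adjusted values of 0.814, 0.868 and 0.814. The rank correlations of these 3 genes were 0.82, 0.85 and 0.83, with exact permutation p-values of 0.0185, 0.00931 and 0.0115, each adjusted to 0.953. Orm2 and Cp had r = 0.83 each (exact permutation p = 0.0138 and 0.0189, adjusted 0.876 and 0.887) and rho = 0.85 and 0.72 (exact permutation p = 0.00757 and 0.0573, adjusted 0.953 and 1.0). The remaining 4 of the 11 genes were Lbp, Itih3, Orm3 and Lrg1, with r between 0.58 and 0.78.

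The fibrinogen chains had r = 0.40 for Fga, 0.38 for Fgb and 0.32 for Fgg (exact permutation p = 0.225, 0.271 and 0.371, each adjusted to 0.994). Saa4, next to Saa1 on the chromosome, had r = 0.42 (exact permutation p = 0.289, adjusted 0.994). S100a8 had r = 0.11, Steap4 −0.13, Itih2 −0.07 and Alb −0.36, with exact permutation p-values between 0.469 and 0.902 before adjustment. Whether the r of one gene differs from that of another was not tested.

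WT mice 2 and 3 were farthest from the median of the amyloid deviations. Without them, r over 8 mice was 0.92 for Orm1, 0.84 for Hp, 0.82 for Lcn2, 0.80 for Orm2, 0.77 for Apcs, 0.75 for Hpx and 0.45 for Cp, and 22 of 28 genes had an r above 0, with a median of 0.45. An unadjusted exact permutation p of r below 0.05 was then found for 6 of the 28. The fibrinogen chains were between −0.10 and 0.03, and Saa4 was at 0.87.

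**Figure D5:**
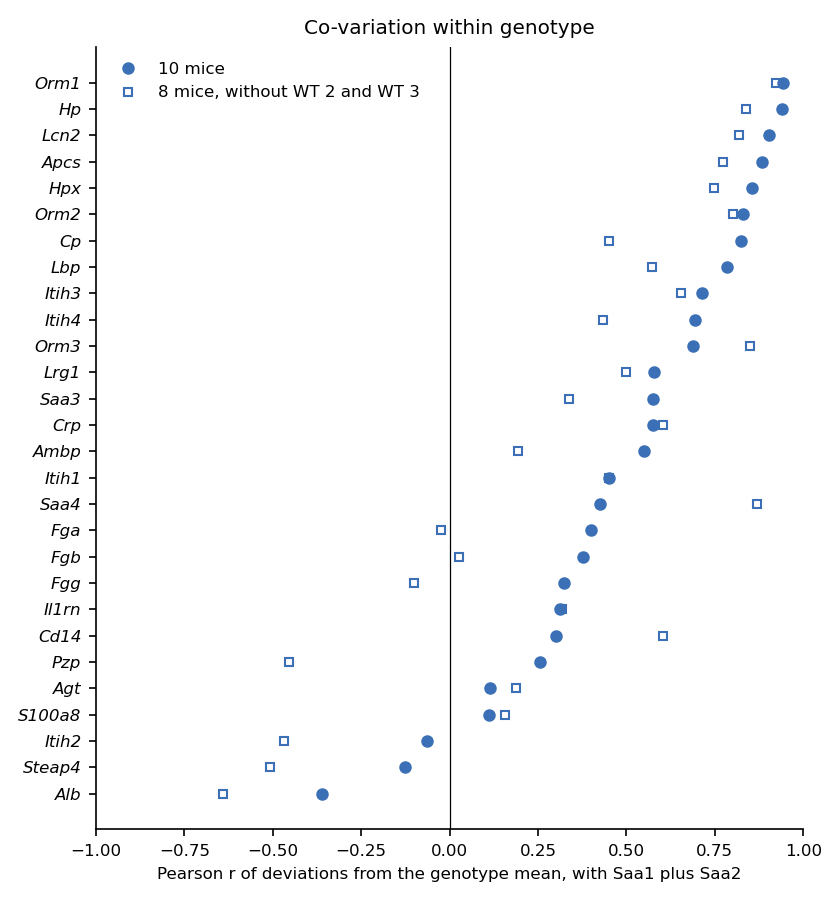
Pearson r (x) of within-genotype deviations with those of Saa1 plus Saa2 for 28 acute-phase genes (y), over 10 mice (filled circles) and over 8 mice without WT mice 2 and 3 (open squares). Orm1, Hp, Lcn2 and Orm2 stay above 0.8 in both (Orm2 only just), Apcs, Hpx and Cp do not, and the 3 fibrinogen chains fall from between 0.32 and 0.40 to about 0.

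Outside the list, the tested genes whose deviations were most like those of Saa1 plus Saa2 over the 10 mice were Tmem176b (r = 0.96), Crybb3 (0.93), Tmem176a (0.92), complement C3 (0.91), Dnlz (0.90), Cpb2 (0.90), March2 (0.89), Dnajc8 (0.88), Kctd12b (0.87) and Polr2l (0.86), the highest of 12204 values of r. Tmem176a and Tmem176b encode paired membrane proteins, and Cpb2 encodes a plasma carboxypeptidase that slows the breakdown of clots. The lowest values of r were those of Ces1f (−0.94), a liver carboxylesterase, Cdc20 (−0.92), Casp8 (−0.91), Adat1 (−0.90) and Wdcp (−0.88). Ces1f was higher in Thrb hep-/- livers (log2 fold change 0.59, standard error 0.12), and Tmem176a and Tmem176b were lower (−0.64, standard error 0.14, and −0.53, standard error 0.13), as were Crybb3 (−3.17, standard error 0.59) and Cpb2 (−0.46, standard error 0.13). Crybb3 averaged 4.34 normalized CPM in WT and 0.486 in Thrb hep-/- livers, so it passed the filter on low counts mainly through WT libraries. The other genes named here were not past the 0.15 threshold (adjusted p of edgeR between 0.216 and 0.971). Over all tested genes 4.08% were called.

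Other genes of the response were taken from 3 further lists. Of 20 tested genes of other positive acute-phase proteins, 5 were lower in the Thrb hep-/- group at the 0.15 threshold and none higher, against 2.57% and 1.51% of all tested genes, while 12 were lower and 2 higher at an unadjusted p below 0.05 (7.41% and 6.15% of all tested genes) and DESeq2 called 10 lower and none higher (3.96% and 3.28%). The 5 became 1 without WT mouse 2, WT mouse 5 or Thrb hep-/- mouse 3, 2 without Thrb hep-/- mouse 5 and 3 without Thrb hep-/- mouse 4. The 5 were Mt1, a metal-binding metallothionein (282 ± 123 normalized CPM in WT mice and 44.0 ± 34.4 after deletion, SD with n = 5 in each group, log2 fold change −2.68), Fgl1, a fibrinogen-like hepatokine (963 ± 223 and 309.6 ± 158, −1.64), the protease inhibitor Serpina3n (1476 ± 464 and 628 ± 247, −1.23) and the complement genes C4b (3023 ± 234 and 1999 ± 497, −0.60) and C4bp (946 ± 133 and 711 ± 79.1, −0.41). Serpina3k, a protease inhibitor with the highest mean over all 10 mice in the list, was at 10594 ± 1361 and 9855 ± 2099 (log2 fold change −0.10, standard error 0.16), and complement C3 was at 11759 ± 2759.8 and 8465 ± 966 (−0.47, standard error 0.16), neither past the threshold. Hamp, the gene of the iron hormone hepcidin, and Angptl4 were fitted higher in Thrb hep-/- livers (0.81, standard error 0.34, and 0.87, standard error 0.37), not past the threshold.

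The 26 tested genes of the interleukin 6, interleukin 1 and tumour necrosis factor pathways were receptors, kinases, transcription factors, inhibitors and the cytokine Il1b. Of these, 1 was lower and none was higher by edgeR, and DESeq2 called 2 and none. At an unadjusted p below 0.05 (edgeR) there were 4 and 2. The shares of all tested genes were 2.57% and 1.51%, 3.96% and 3.28%, and 7.41% and 6.15%, in the same order, so 1 in 26 was near the background. The count was 0 without WT mouse 2, without Thrb hep-/- mouse 3 or with the replicate number as a block, and 3 without Thrb hep-/- mouse 1. The 1 gene was Irak3, an inhibitor of interleukin 1 receptor signalling, at 1.92 ± 0.773 and 0.791 ± 0.277 normalized CPM (log2 fold change −1.27, standard error 0.30). Irak3 was between 1.25 and 3.14 in WT and between 0.549 and 1.15 in Thrb hep-/- livers. It therefore passed the filter on low counts mainly through WT libraries. Cebpa, the most abundant of them, was at 476 ± 46.4 and 540 ± 93.0 (log2 fold change 0.18, standard error 0.13). The target genes and feedback inhibitors Socs3 and Nfkbia were at −0.05 (standard error 0.51) and 0.29 (standard error 0.11) and not called. Besides Irak3, the genes lower at an unadjusted p below 0.05 (edgeR) were Il1r1 (−0.71, standard error 0.26), Nfkbiz (−0.38, standard error 0.16) and Jak1 (−0.16, standard error 0.067). The 2 higher ones were Nfkbia and Il1rap (0.29, standard error 0.13). Of the cytokine genes, Il6 and Tnf did not pass the filter, and Il1b was not called (log2 fold change −0.30, standard error 0.33).

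Of 16 tested negative acute-phase genes other than Alb, 2 were higher in Thrb hep-/- livers and none lower by edgeR, against 1.51% and 2.57% of all tested genes. The 2 became 0 without WT mouse 2, without Thrb hep-/- mouse 3 or with the replicate number as a block, and 1 without WT mouse 3 or 5 or Thrb hep-/- mouse 4 or 5. DESeq2 called 3 and none, and at an unadjusted p below 0.05 edgeR had 3 and none (3.28% and 3.96%, and 6.15% and 7.41%, of all tested genes). Serpina6, the corticosteroid carrier, was at 206 ± 31.5 normalized CPM in WT and 293 ± 41.3 in Thrb hep-/- livers (log2 fold change 0.50, standard error 0.12), and Rbp4, the retinol carrier, at 2369 ± 355 and 3226 ± 283 (0.45, standard error 0.12). Trf, the gene of transferrin and the most abundant of the 16, was at 25854 ± 4156 and 22721 ± 1798 (−0.19, standard error 0.13). Median log2 fold changes were −0.37 over the 20 other positive genes, −0.14 over the 26 regulators and −0.01 over the 16 negative genes.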

How the data were processed

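Per the labels and the study's methods, stranded mRNA libraries of mouse liver were sequenced on a DNBSEQ instrument, mapped by the authors on mm10 (GRCm38) with HISAT2 2.2.1 and counted on Ensembl exons with HTSeq-count 0.9.1, without strand, leaving out reads with more than 1 map position or gene. The authors deposited the resulting raw counts. The authors' table of their edgeR 3.36.0 comparison (log2 fold change, log CPM, F, p and adjusted p) was not used.

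Here edgeR 4.0.16 (R 4.3.3) was applied to these counts. A gene was tested if 5 or more libraries had at least 1 CPM, libraries were scaled by TMM, and WT and Thrb hep-/- were compared with the robust quasi-likelihood F-test and Benjamini-Hochberg adjustment at 0.15, after the study, and at 0.05. The standard error of a log2 fold change is its size over the square root of F. Log2 CPM used a prior count of 2. Normalized RPKM are normalized CPM per kilobase of GENCODE exon on GRCm38. Deviations were correlated in Python 3.11.15 and p adjusted over all tested genes, not over the list alone as first planned. The fit and the correlation were tested on simulated data. At a depth of 26477195 to 28590704 counts, 3 counts are 0.0993 to 0.117 normalized CPM, which covers counting error only. Groups follow the genotype labels, each library being 1 mouse.

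The 32 genes, the lists of other acute-phase genes and the cell type markers were chosen with earlier results of these data known. Values per mouse were given for genes past 0.15, the Saa genes, the highest-level gene of each role and Alb. Of the other lists, genes past 0.15 and the most abundant one were named, and of all other genes the 10 highest and 5 lowest values of r. C3, Hamp, Angptl4, Socs3, Nfkbia, Il1r1, Nfkbiz, Jak1, Il1rap, Il1b, Il6 and Tnf were added after their values were seen, as were single cell type markers. Chi3l1 matched no gene. Alternatives were DESeq2 1.42.0, limma-voom (limma 3.58.1), RLE and upper-quartile factors, no filter, filterByExpr, no robust settings, the replicate number as a block, leaving out each mouse and, for the correlations, a prior count of 0.5, RLE factors and Saa1 alone as reference.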

Additional observations from a re-analysis of the deposited data

Results flagged for a closer look

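In groups of 5 mice, a mouse was singled out when its gap to the nearest of the others exceeded Dixon's 95% critical value times the range of the group. Of 70 groups checked (32 genes, the summed Saa1 and Saa2 level, the share of counts in the 32 genes and the total count, in 2 genotypes), 9 were singled out. For independent groups of normally distributed values it would be about 1 in 20, or 3.5. That figure does not hold here, since the genes share their mice and the levels were taken on a linear scale.

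Thrb hep-/- mouse 2 accounted for 6 of the 9. It was high for Saa3 (31.9 normalized CPM, others 6.05 to 8.71), Lcn2 (30.2, others 6.32 to 11.9), Hpx (7830.3, others 4136 to 5192), Crp (475, others 321 to 359) and A2m (1.57, others 0.278 to 0.480). Its total count of 27779196 was the lowest of its genotype, the others being between 28441288 and 28590704. The normalized CPM are scaled for this total.

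Thrb hep-/- mouse 1 was high for Fga (11612 normalized CPM, others 5498 to 6983) and for Itih2 (1307, others 1128 to 1177). WT mouse 2 was high for Saa3 (66.4 normalized CPM, others 8.25 to 24.6). No WT mouse was singled out for Saa1, Saa2, Orm2 or Lcn2, for which WT mice 2 and 5 were both high.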

How the results depend on the processing

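The 15 genes lower at an adjusted p below 0.15 became between 9 (without Thrb hep-/- mouse 3) and 16 with a mouse left out, and 21 with DESeq2. The 8 at 0.05 became 15 with DESeq2, 5 with filterByExpr and between 2 and 11 with a mouse left out (2 without WT mouse 5 and without each of Thrb hep-/- mice 3, 4 and 5, 3 without WT mouse 2, 4 without WT mouse 1). The median log2 fold change of −0.87 was between −0.95 and −0.50, the latter without WT mouse 2. Of 535 fold changes refitted for single genes under the alternatives, 495 kept their direction and their side of the threshold, and 23 of 6 genes (Cp, Hpx, Itih3, Orm1, Orm2 and S100a8) lost it. In 12, of 8 genes (Ambp, Fga, Fgb, Fgg, Itih1, Orm3, Pzp and Saa3), it was gained, and 5, of 3 genes, changed sign. With a mouse left out, Itih2 was between −0.099 and 0.033, Il1rn between −0.40 and 0.037 and Agt between −0.080 and 0.066, above 0 without WT mouse 1 for Itih2 and Agt, without Thrb hep-/- mouse 4 for Il1rn and Agt (0.0044), and without Thrb hep-/- mouse 5 for Agt (0.0019). Saa1, Saa2, Saa4, Lcn2, Hp, Apcs, Itih4, Lbp and Lrg1 were past 0.15 under all 18 alternatives. The cause of the changes was not tested, and leaving out a mouse also lowers the number of mice.

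The 5 other positive genes became 10 with DESeq2 and between 1 and 6 with a mouse left out (1 without WT mouse 2, WT mouse 5 or Thrb hep-/- mouse 3, 2 without Thrb hep-/- mouse 5, 3 without Thrb hep-/- mouse 4). The single regulator became 2 with DESeq2 and between 0 (without WT mouse 2 or Thrb hep-/- mouse 3) and 3 (without Thrb hep-/- mouse 1). The 2 negative genes that were higher became between 0 (without WT mouse 2 or Thrb hep-/- mouse 3) and 3, and those lower between 0 and 1 (without Thrb hep-/- mouse 2). The 11 genes correlated at an unadjusted p below 0.05 became 6 without the 2 farthest mice and between 6 (without WT mouse 3) and 14 with a mouse left out. The difference in the share of counts stayed between −3.14 and −2.01 percentage points with a mouse left out.

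The sample titles give replicate numbers without saying that they pair mice. Over all tested genes, deviations of mice with the same number correlated between −0.20 and 0.0091. No WT mouse correlated best with the Thrb hep-/- mouse of its own number. For Saa1 alone, deviations of mice 1 to 5 were −0.49, 2.33, −2.42, −0.79 and 1.37 in WT. In Thrb hep-/- they were 0.07, 1.32, −1.29, −0.93 and 0.83, a similar order. Those of Alb were 0.38, −0.29, −0.19, 0.08 and 0.02, and −0.06, −0.02, 0.16, 0.06 and −0.14, not alike. What the numbers stand for was not tested. With the replicate number as a block, the 15 genes became 16, the 8 at 0.05 became 15, the 5 other positive genes 4, the regulator 0 and the 2 negative genes 0. A library with 3 counts of a gene gives 0.0993 to 0.117 normalized CPM, the level of S100a8 in Thrb hep-/- mouse 4, below which no level could be told from 0.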
